A study of Mus musculus with 6 samples.

Results

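The transcriptional end of the Hippo pathway was followed through 6 liver tumors at the mRNA level. The genes were the coactivators *Yap1* (YAP) and *Wwtr1* (TAZ), their DNA-binding partners *Tead1*, *Tead2*, *Tead3* and *Tead4*, and 4 genes widely read as their output, *Ccn1*, *Ccn2*, *Amotl2* and *Ankrd1*. These 10 genes, of 35683 in the tables, were taken by symbol, and their TPM values (transcript abundance as a length-corrected share of the library) were summed over the transcripts of each gene.

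The Hippo pathway is a kinase cascade in which MST1 and MST2 activate LATS1 and LATS2, which phosphorylate YAP and TAZ and hold them in the cytoplasm or send them to degradation. Unphosphorylated YAP and TAZ enter the nucleus, bind TEAD factors and switch on genes for growth, matrix and cytoskeleton. In the liver the cascade restrains organ size and keeps hepatocytes differentiated. Phosphorylation and location decide YAP and TAZ activity, and neither was measured in RNA.

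The tumors came from 2 male C57BL/6 mice, mouse 1 and mouse 2, with 3 macroscopic liver tumors from each. All carried the CMRtdT genotype, which combines 1 copy of a *Ctnnb1* allele whose exon 3 Cre can delete (leaving a stabilized β-catenin at the endogenous locus), the MUP-uPA transgene that injures hepatocytes from within, and a tdTomato reporter at R26. High-fat feeding began at 6 weeks, AAV8-TBG-Cre, whose TBG promoter is active in hepatocytes, was given at 8 weeks, and tumors were taken 6.5 months later. Tumors of 1 mouse share that animal, both mice had the same treatment, and no liver without tumor was analysed here, so levels are described across tumors and the only comparison of labelled groups was mouse 1 against mouse 2. Poly(A) libraries of bulk tumor tissue were sequenced as paired reads, and in bulk tissue fewer cells of a type and less RNA per cell cannot be told apart.

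The libraries held 19130532 to 27681766 estimated counts, and tumor 1 of mouse 1 stood apart from the other 5. Its 5 hepatocyte markers (*Alb*, *Apoa1*, *Ttr*, *Tat*, *Serpina1c*) summed to 1086 TPM, against 15833 to 29889 TPM in the others, so the liver label rested on much lower hepatocyte mRNA there. It had 13018 genes at 1 TPM or more, against 10339 to 11675. Mitochondrial genes took 6.90% to 8.38% of counts in mouse 1 and 12.9% to 18.4% in mouse 2. Abundant liver mRNAs were scarce in tumor 1 of mouse 1 and most other genes took a larger share: of 13268 genes with enough counts to be tested, the median log2 ratio of (TPM + 1) in that tumor to the median of the other 5 was 0.80, and 0.11 after TMM scaling, which sets most genes of each library level. Ratios of the 10 genes for that tumor are given on both scales, without a test, since 1 tumor has no replicate.

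*Yap1* and *Wwtr1* were moderately expressed in every tumor and highest in tumor 1 of mouse 1. *Yap1*, on chromosome 9 from 7931999 to 8004638 (GRCm38), encodes YAP, the main coactivator restrained by LATS kinases. It had 58.4, 23.8 and 23.7 TPM in tumors 1, 2 and 3 of mouse 1, against 16.1, 16.3 and 12.6 TPM in tumors 1, 2 and 3 of mouse 2. The 3 tumors of mouse 1 lay above the 3 of mouse 2 without overlap, and tumor 1 lay far above the other tumors of its own mouse. The mean was 25.2 ± 16.9 TPM (SD, n = 6), or 18.5 ± 5.01 TPM (SD, n = 5) without that tumor. *Yap1* in tumor 1 of mouse 1 was 3.57 times the median of the other 5 in TPM and 1.77 times after TMM scaling.

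*Wwtr1*, on chromosome 3 from 57455644 to 57575910, encodes TAZ, the YAP paralog that shares its TEAD partners. It had 31.4, 17.9 and 17.7 TPM in the tumors of mouse 1, against 11.2, 14.7 and 9.53 TPM in mouse 2, without overlap in TPM and highest in tumor 1 of mouse 1. After TMM scaling the mice overlapped, with 15.6 in tumor 3 of mouse 1, against 16.2 in tumor 2 of mouse 2. The mean was 17.1 ± 7.79 TPM (SD, n = 6), or 14.2 ± 3.77 TPM (SD, n = 5) without tumor 1 of mouse 1, which stood at 2.13 times the median of the others in TPM and 1.24 times after TMM scaling. *Yap1* exceeded *Wwtr1* in 6 of 6 tumors, by 0.47 ± 0.24 on the log2 TPM scale (SD, n = 6). The share of *Yap1* in the sum of both was 65.0%, 57.1% and 57.3% in mouse 1 and 59.0%, 52.6% and 57.0% in mouse 2, a ratio within each tumor that no scaling alters. *Yap1* thus outweighed *Wwtr1* in every tumor, most of all in tumor 1 of mouse 1.

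**Figure D1:**
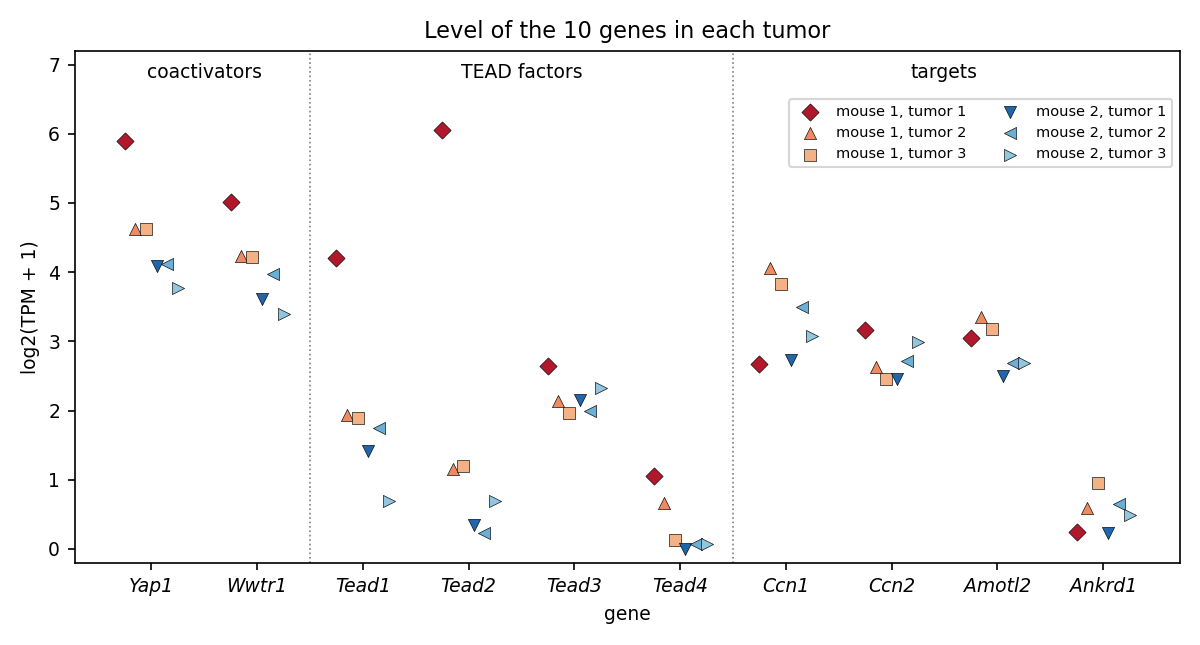
Level of each of the 10 genes on the vertical axis, as log2(TPM + 1), with 1 point for each of the 6 tumors and no error bars. The point of tumor 1 of mouse 1 is the highest for both coactivators and all 4 TEAD genes on this scale (not for *Tead3* after TMM scaling), at 65.7 TPM for *Tead2*, and the lowest for *Ccn1*, at 5.35 TPM.

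Almost all *Yap1* mRNA came from a pair of transcripts that differ in a short alternative exon. The longer one holds an exon of 48 bases, or 16 codons, that the shorter one skips. It lies in the part of the coding sequence after the WW domains, where YAP isoforms are known to differ, and is printed from the GENCODE vM39 transcript, on the minus strand of chromosome 9, with 24 bases of the neighboring exon on each side in lower case and the alternative exon in capitals, since it is the sequence that tells the isoforms apart.
Yap1 alternative exon: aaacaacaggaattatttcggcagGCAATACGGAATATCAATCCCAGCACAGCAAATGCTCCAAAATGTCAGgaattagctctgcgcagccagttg

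The transcript with the exon had 15.1, 11.2 and 11.9 TPM in mouse 1, against 5.14, 6.01 and 7.19 TPM in mouse 2. The transcript without it had 41.2, 11.5 and 11.4 TPM in mouse 1, against 10.3, 9.51 and 5.27 TPM in mouse 2. The high *Yap1* of tumor 1 of mouse 1 was therefore mostly the transcript without the exon: the exon-bearing form made up 26.9% of both, against 33.2% to 57.7% in the other 5 tumors. Within mouse 1 the share was 49.4% in tumor 2 and 51.1% in tumor 3, and in mouse 2 it was 33.2%, 38.7% and 57.7%, so that the mice overlapped. The estimates rest on 1062 and 2843 reads in tumor 1 of mouse 1 and on 400 to 1064 reads per transcript in the others. The pair shares most of its sequence, and the uncertainty of the split was not in the tables used here. Their lengths in the files, 4171 and 4115 bases, differ by more than this exon, so that the models behind the estimates were not identical to those of vM39.

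**Figure D2:**
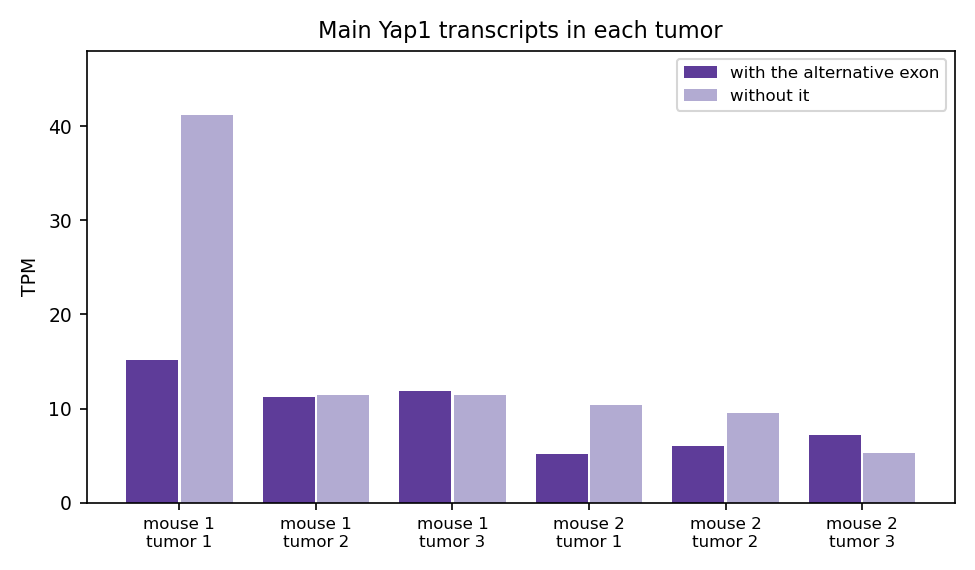
TPM (vertical axis) of the main *Yap1* transcripts with and without the 48-base exon in each of the 6 tumors, as 1 bar per tumor and transcript without error bars. The transcript without the exon reaches 41.2 TPM in tumor 1 of mouse 1, where that with it is at 15.1 TPM, while both lie between 11.2 and 11.9 TPM in tumors 2 and 3 of the same mouse.

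The TEAD genes, which encode the DNA-binding side of the complex, differed widely in how much they varied. *Tead2*, on chromosome 7 from 45215792 to 45233468, is the TEAD of early embryos and neural precursors. It had 65.7, 1.24 and 1.28 TPM in mouse 1, against 0.266, 0.175 and 0.625 TPM in mouse 2. In estimated counts these were 1384, 46 and 45 in mouse 1, against 11, 6 and 15 in mouse 2. The gene was thus abundant in 1 tumor, low in the other tumors of the same mouse and lower still, without overlap, in mouse 2. Tumor 1 of mouse 1 held 105 times the median of the other 5 in TPM, 44.6 times after TMM scaling and 67.6 times in TPM of coding transcripts alone. Short transcripts carried much of the TPM value: the main coding transcript of 2140 bases had 29.5 TPM from 1067 reads there, while one of 460 bases with no coding sequence defined had 22.3 TPM from 91 reads and one of 388 bases had 8.02 TPM from 28 reads.

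*Tead1*, on chromosome 7 from 112679356 to 112906784, encodes a TEAD of wide tissue distribution with a known part in heart muscle. Its levels were 17.4, 2.83 and 2.72 TPM in mouse 1, against 1.66, 2.36 and 0.625 TPM in mouse 2. Tumor 1 of mouse 1 was again far above the rest, and in TPM tumors 2 and 3 lay just above the highest tumor of mouse 2. After TMM scaling that order turned, with 2.53 and 2.41 in tumors 2 and 3 of mouse 1, against 2.60 in tumor 2 of mouse 2. The ratio of tumor 1 of mouse 1 to the median of the other 5 was 7.39 in TPM and 4.47 after TMM scaling. Its main transcript, of 9480 bases, carried 61.0% to 84.2% of the TPM in the 6 tumors.

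*Tead4*, on chromosome 6 from 128227143 to 128300813, marks the first lineage choice of the mouse embryo and was close to absent here. Its TPM values were 1.08, 0.590 and 0.0972 in mouse 1, against 0, 0.0489 and 0.0495 in mouse 2, from 52, 6 and 7 estimated counts in mouse 1 and 0, 3 and 2 in mouse 2. A count of 0 in tumor 1 of mouse 2 allows up to 3 counts, and these limits cover counting error only. It was the 1 member of the 10 below the count filter of the test.

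*Tead3*, on chromosome 17 from 28331671 to 28350805, a TEAD best known from placenta, was the steadiest of the family. It had 5.23, 3.40 and 2.92 TPM in mouse 1, against 3.43, 3.00 and 4.0 TPM in mouse 2. In TPM the mice overlapped, with a mean of 3.66 ± 0.857 TPM (SD, n = 6). After TMM scaling they did not, with 3.24, 3.04 and 2.59 in mouse 1, against 4.35, 3.31 and 5.83 in mouse 2. Tumor 1 of mouse 1 was 1.54 times the median of the others in TPM and 0.978 times after TMM scaling. Its transcripts were not the same in that tumor: the form of 2585 bases had 33 reads and that of 2448 bases had 91 there, against 130 to 191 reads and 0 to 21 reads in the other 5.

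As a result the makeup of the TEAD mRNA pool differed between tumors. The 4 genes summed to 89.4, 8.06 and 7.03 TPM in mouse 1, against 5.35, 5.58 and 5.30 TPM in mouse 2. *Tead2* was 73.5% of the sum in tumor 1 of mouse 1 and 15.4% and 18.3% in tumors 2 and 3, against 4.97%, 3.13% and 11.8% in mouse 2. *Tead3* led the pool in all the other tumors, with 42.2% and 41.6% for tumors 2 and 3 of mouse 1 and with 64.0%, 53.8% and 75.5% in mouse 2, against 5.85% in tumor 1 of mouse 1. *Tead1* took 19.5%, 35.2% and 38.8% in mouse 1 and 31.0%, 42.2% and 11.8% in mouse 2. These shares are ratios within a tumor and do not depend on the scaling between tumors, but they do depend on the transcripts counted. Over coding transcripts alone, the sum in tumor 1 of mouse 1 was 64.1 TPM, with 65.9% *Tead2*, 26.7% *Tead1* and 5.66% *Tead3*. The shares were computed after the levels had been seen.

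**Figure D3:**
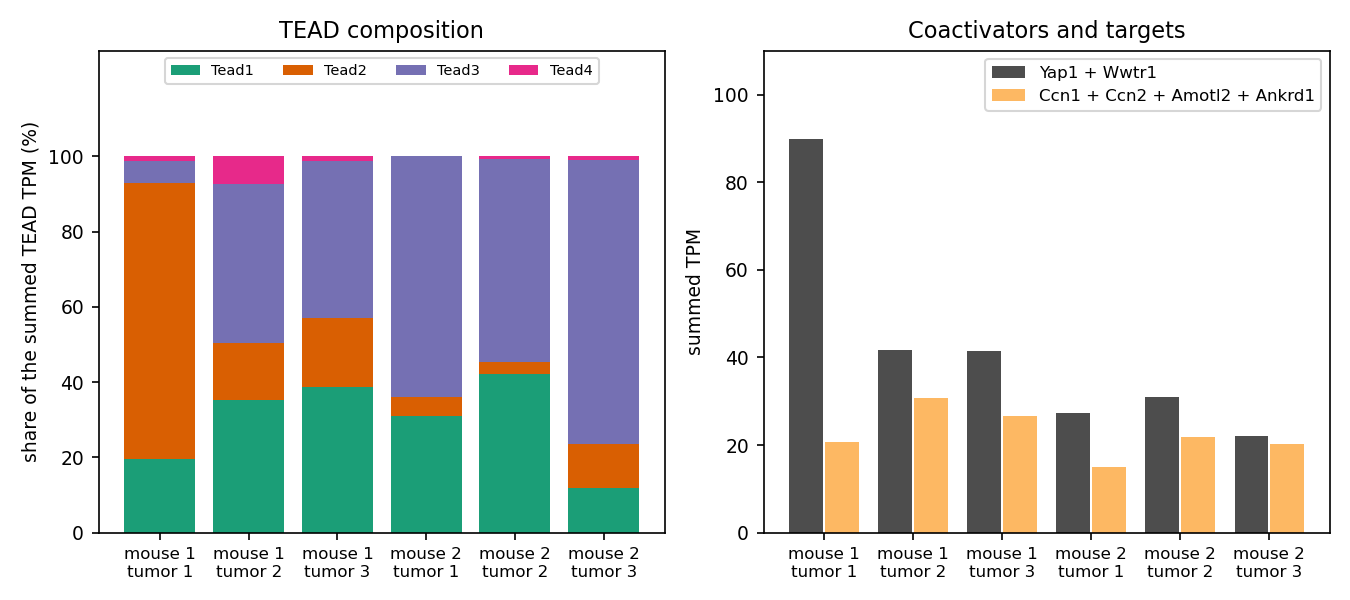
Left, share of each TEAD gene in the summed TEAD TPM (%) of each tumor. Right, summed TPM of *Yap1* and *Wwtr1* and of the 4 targets in each tumor, with no error bars. *Tead2* makes up 73.5% in tumor 1 of mouse 1 (65.9% over coding transcripts alone) and at most 18.3% elsewhere. That tumor has 89.8 TPM of coactivators against 20.8 TPM of targets.

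The 4 target genes did not share 1 pattern. In tumor 1 of mouse 1 *Ccn2* stood close to the factor *Tead3*, at 1.53 and 1.54 times the median of the other 5 in TPM. After TMM scaling the 2 were at 0.866 and 0.978 times. *Ccn1* (CYR61), on chromosome 3 from 145646971 to 145649985, encodes a matricellular protein that binds integrins and is among the most used readouts of YAP activity. It had 5.35, 15.8 and 13.3 TPM in mouse 1, against 5.61, 10.3 and 7.44 TPM in mouse 2. It was lowest in tumor 1 of mouse 1, the tumor with most *Yap1*, and highest in tumors 2 and 3 of the same mouse, which lay above all of mouse 2. *Ccn1* in tumor 1 of mouse 1 was 0.522 times the median of the others in TPM and 0.293 times after TMM scaling, with a mean of 9.61 ± 4.25 TPM (SD, n = 6).

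*Ankrd1*, on chromosome 19 from 36111965 to 36119844, encodes an ankyrin repeat protein of heart muscle that YAP induces in many cell types. Its levels were below 1 TPM throughout, at 0.189, 0.503 and 0.929 TPM in mouse 1 and 0.176, 0.572 and 0.406 TPM in mouse 2. With 6, 17 and 39 estimated counts in mouse 1 and 7, 20 and 13 in mouse 2, its order among tumors is uncertain. Tumor 1 of mouse 1 stood at 0.376 times the median of the others in TPM and at 0.198 times after TMM scaling.

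*Ccn2* (CTGF), on chromosome 10 from 24595442 to 24598683, encodes the paralog of CCN1 that drives matrix production in fibrosis. It had 7.98, 5.22 and 4.47 TPM in mouse 1, against 4.49, 5.59 and 6.97 TPM in mouse 2. The mice thus overlapped in TPM, and tumor 1 of mouse 1 was highest. That lead did not hold on the other scale: the ratio to the median of the others was 1.53 in TPM and 0.866 after TMM scaling. On the TMM scale the mice did not overlap, with 4.94, 4.67 and 3.95 in mouse 1, against 5.70, 6.16 and 10.2 in mouse 2. The mean was 5.79 ± 1.42 TPM (SD, n = 6), and the main transcript, of 2398 bases, carried 87.4% to 100% of it.

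*Amotl2*, on chromosome 9 from 102717091 to 102733418, encodes an angiomotin that binds YAP and holds it at junctions, and is itself induced by YAP. Its levels were 7.30, 9.24 and 8.05 TPM in mouse 1, against 4.63, 5.42 and 5.47 TPM in mouse 2, without overlap in TPM. After TMM scaling they were 4.52, 8.27 and 7.12 in mouse 1, against 5.89, 5.98 and 7.96 in mouse 2, so that the mice overlapped and tumor 1 of mouse 1 was the lowest of the 6. That tumor stood at 1.34 times the median of the others in TPM and 0.635 times after TMM scaling. The longer transcript, of 4328 bases, made up 80.1%, 55.2% and 60.7% of the TPM of the main pair in mouse 1, and 85.4%, 57.4% and 72.9% in mouse 2.

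The summed targets were 20.8, 30.7 and 26.7 TPM in mouse 1, against 14.9, 21.8 and 20.3 TPM in mouse 2. Against the sum of *Yap1* and *Wwtr1* this gave 0.232, 0.737 and 0.645 TPM of target per TPM of coactivator in mouse 1, and 0.547, 0.703 and 0.916 in mouse 2. Tumor 1 of mouse 1 was the lowest and lay outside the range of the other 5. For *Ccn1* alone the ratio was 0.0596, 0.378 and 0.320 in mouse 1 and 0.206, 0.330 and 0.336 in mouse 2, with the same tumor lowest. Both ratios are independent of scaling between tumors, were chosen after the values had been seen, and describe mRNA, not activity.

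Stretches of DNA near annotated start sites of some of these genes are shown with their matches to the TEAD motif, and TEAD binding was not measured. RefSeq windows of GRCm38.p6, 300 bases long and ending 50 bases past a start site, were searched for the TEAD motif GGAATG on both strands (CATTCC on the other), and 14.7% of 32851 windows, or 16.6% of 27025 genes, held it. Windows were on hand for 7 members, and 6 of these, all except *Tead2*, had at least 1 match. No windows were used for *Tead1*, *Tead4* and *Ccn2*. Of the 12 other target genes with a window, 4 had a match, or 33.3%. A match is a description of letters and not a binding site. Matches are in capitals, and each sequence runs in the direction of transcription.
Ccn1 promoter, chr3:145649936-145650235, minus strand: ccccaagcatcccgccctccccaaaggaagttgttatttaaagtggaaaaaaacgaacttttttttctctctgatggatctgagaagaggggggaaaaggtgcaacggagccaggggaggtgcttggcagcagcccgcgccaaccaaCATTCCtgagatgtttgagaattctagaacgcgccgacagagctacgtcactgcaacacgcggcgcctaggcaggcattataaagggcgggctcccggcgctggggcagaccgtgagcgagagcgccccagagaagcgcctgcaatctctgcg
Ankrd1 promoter, chr19:36119795-36120094, minus strand: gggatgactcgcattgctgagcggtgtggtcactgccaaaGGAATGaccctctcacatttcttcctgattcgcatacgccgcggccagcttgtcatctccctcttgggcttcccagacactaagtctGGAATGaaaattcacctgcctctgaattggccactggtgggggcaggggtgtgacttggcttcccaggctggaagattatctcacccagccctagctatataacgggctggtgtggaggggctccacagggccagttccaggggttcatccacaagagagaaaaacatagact
Amotl2 promoter, chr9:102717554-102717853, plus strand: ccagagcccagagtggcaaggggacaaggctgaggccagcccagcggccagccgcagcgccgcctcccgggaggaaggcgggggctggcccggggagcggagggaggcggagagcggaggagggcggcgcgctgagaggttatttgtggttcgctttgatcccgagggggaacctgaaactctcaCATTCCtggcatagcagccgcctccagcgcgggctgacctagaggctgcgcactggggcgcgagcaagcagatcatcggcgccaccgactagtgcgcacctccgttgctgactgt
Yap1 stretch, chr9:8004705-8004764, minus strand: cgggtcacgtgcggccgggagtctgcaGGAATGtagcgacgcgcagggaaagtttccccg
Wwtr1 stretch, chr3:57576014-57576073, minus strand: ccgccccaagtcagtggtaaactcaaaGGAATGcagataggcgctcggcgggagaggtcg

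The match in the *Ccn1* window began 103 bases before the start site of that window, and that of *Amotl2* 65 bases before its own. The *Amotl2* window lies inside the gene interval given above, so that its start site is an inner one and the match is within the gene. *Ankrd1* had 2 matches, 210 and 123 bases upstream, and 1.33% of all windows held at least 2. The windows of *Tead3*, which are not printed, held 1, 3 and 0 matches. The coactivator genes held 1 match each. In *Yap1* it was 141 bases upstream of an inner start site, as the gene interval given above reaches further out. In *Wwtr1* it was 136 bases upstream of the outer start site. *Ccn1*, *Ankrd1* and *Amotl2*, which all held matches, stood in tumor 1 of mouse 1 at 0.522, 0.376 and 1.34 times the median of the other 5 tumors in TPM and at 0.293, 0.198 and 0.635 times after TMM scaling. These 3 were thus on both sides of the others in TPM, and after TMM scaling they were the members for which that tumor was lowest. The other members with a match, *Yap1*, *Wwtr1* and *Tead3*, stood there at 3.57, 2.13 and 1.54 times in TPM. After TMM scaling they stood at 1.77, 1.24 and 0.978 times, so members with a match lay on both sides on both scales.

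Read against all genes, the place of tumor 1 of mouse 1 was not particular to the 10 genes. It was the highest tumor for 7 of the 10 in TPM and the lowest for 1, against 60.9% and 22.5% of the 13268 tested genes. After TMM scaling it was highest for 5 of the 10, against 44% of tested genes, and lowest for 3, against 37.2%. At least 4 times the median of the others was reached by 3 of the 10 on both scales (*Tead1*, *Tead2* and *Tead4*), against 26.8% of tested genes in TPM and 14.9% after TMM scaling. *Tead4*, counted as highest and as at least 4 times on both scales, was not among the tested genes, and its median in the others was 0.0495 TPM. Of the 9 tested members only *Tead1* and *Tead2* reached 4 times. Among the factors tumor 1 of mouse 1 was highest for 6 of 6 in TPM, and among the targets for 1 of 4, which were 5 of 6 (all except *Tead3*) and 0 of 4 after TMM scaling.

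Markers of other cells did not move one way in that tumor. In summed TPM, 5 endothelial markers had 9.93 against 23.5 to 60.5 in the other 5 tumors, and 4 macrophage markers 72.5 against 109 to 381. In TPM that tumor was the lowest for 4 of the 5 and 4 of the 4, against 22.5% of tested genes. After TMM scaling it was the lowest for 5 of the 5 and 4 of the 4, against 37.2%. The 6 stellate cell and fibroblast markers had 26.9 against 16.6 to 67.0, highest for 1 of 6 and lowest for 1, against 60.9% and 22.5% of tested genes. After TMM scaling their sum was the lowest of the 6 tumors, at 16.7 against 21.1 to 66.8. On that scale 4 of 6 markers were lowest, against 37.2% of tested genes. The 4 smooth muscle markers had 57.5 against 5.83 to 13.7, almost all of it *Acta2*, with *Cnn1* at 0.0536 TPM. The 5 cholangiocyte markers had 11.5 against 2.84 to 13.2, with *Krt19* at 5.10 TPM and *Sox9* at 0.715 TPM. For 4 mesothelial markers the sum was 0.157 against 0.235 to 0.539. Of 6 striated muscle markers, of which 1 was tested, 3 were highest and 1 lowest there in TPM, against 60.9% and 22.5% of tested genes. The counts were the same after TMM scaling, against 44% and 37.2%. *Tnnt2* stood at 89.7 TPM against 0 to 2.65 TPM, *Acta1* at 1.77 TPM against 0 to 0.282 TPM, and *Myh7* at 0.00837 TPM against 0. *Myh6*, *Actc1* and *Ckm* were at 0 in that tumor. The part of any of these cells in the levels of *Yap1*, *Tead1* or *Ankrd1* was not tested.

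Most kinases and scaffolds upstream of YAP and TAZ were highest in tumor 1 of mouse 1. Of 11 core kinase genes and their adaptors, 9 were highest there in TPM, against 60.9% of tested genes, and 8 after TMM scaling, against 44%. Their median log2 ratio to the others was 1.65 in TPM and 0.86 after TMM scaling, against 0.80 and 0.11 over all tested genes. At least 4 times the median was reached by 3 of the 11 in TPM, near the 26.8% of tested genes. After TMM scaling it was reached by 1 (*Map4k4*), against 14.9% of tested genes. *Mob1a*, an activator of LATS kinases, had 86.5 TPM there against 9.18 to 24.6 TPM in the others. *Map4k4*, a kinase that acts in parallel to MST, had 72.1 TPM against 6.21 to 15.5 TPM, and remained 4.41 times the median of the others after TMM scaling. *Stk3* (MST2) had 34.3 TPM against 4.22 to 6.69 TPM, and *Sav1*, the scaffold of MST kinases, 35.4 TPM against 6.22 to 12.4 TPM. *Taok3*, a kinase that activates MST, was lowest there, with 6.83 TPM against 9.31 to 13.7 TPM, and *Mob1b*, the paralog of *Mob1a*, had 9.79 TPM against 6.71 to 16.4 TPM.

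Of 11 upstream and junctional regulators, 10 were highest in that tumor in TPM and 7 after TMM scaling, against 60.9% and 44% of tested genes, with a median log2 ratio of 1.54 and 0.93. At least 4 times the median was reached by 6 in TPM, against 26.8% of tested genes, and by 2 after TMM scaling, near the 14.9% of tested genes. *Nf2* (merlin), which brings LATS to the membrane, had 41.4 TPM against 6.08 to 11.8 TPM. *Amotl1*, a relative of *Amotl2*, had 27.4 TPM against 0.301 to 1.34 TPM, and the protocadherin *Dchs1* 5.48 TPM against 0.115 to 0.527 TPM, and these were the 2 that passed on both scales. *Frmd6* had 17.5 TPM against 1.65 to 4.07 TPM, *Wwc2* 5.14 TPM against 0.217 to 2.70 TPM, and the phosphatase *Ptpn14* 4.75 TPM against 0.173 to 1.54 TPM. The exception was *Wwc1* (KIBRA), with 12.7, 25.3 and 25.5 TPM in mouse 1, against 10.2 to 17.7 TPM in mouse 2. *Limd1*, which inhibits LATS, had 15.8 TPM against 5.21 to 13.7 TPM.

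Genes that turn YAP and TAZ over, or compete for TEAD, were measured too. All 4 turnover genes were highest in tumor 1 of mouse 1 in TPM, against 60.9% of tested genes, and 1 of 4 was after TMM scaling, against 44%: *Csnk1e*, a casein kinase, at 68.0 TPM against 3.93 to 7.52 TPM. *Csnk1d* had 40.0 TPM against 11.8 to 31.0 TPM and *Fbxw11*, a ubiquitin ligase subunit, 40.2 TPM against 9.04 to 31.8 TPM. *Vgll4*, which competes with YAP for TEAD, had 92.4, 29.3 and 29.9 TPM in mouse 1, against 15.2, 14.2 and 8.10 TPM in mouse 2. It was the most abundant of the VGLL genes, while *Vgll3* reached at most 0.371 TPM, *Vgll1* at most 0.0228 TPM and *Vgll2* was listed at 0.

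**Figure D4:**
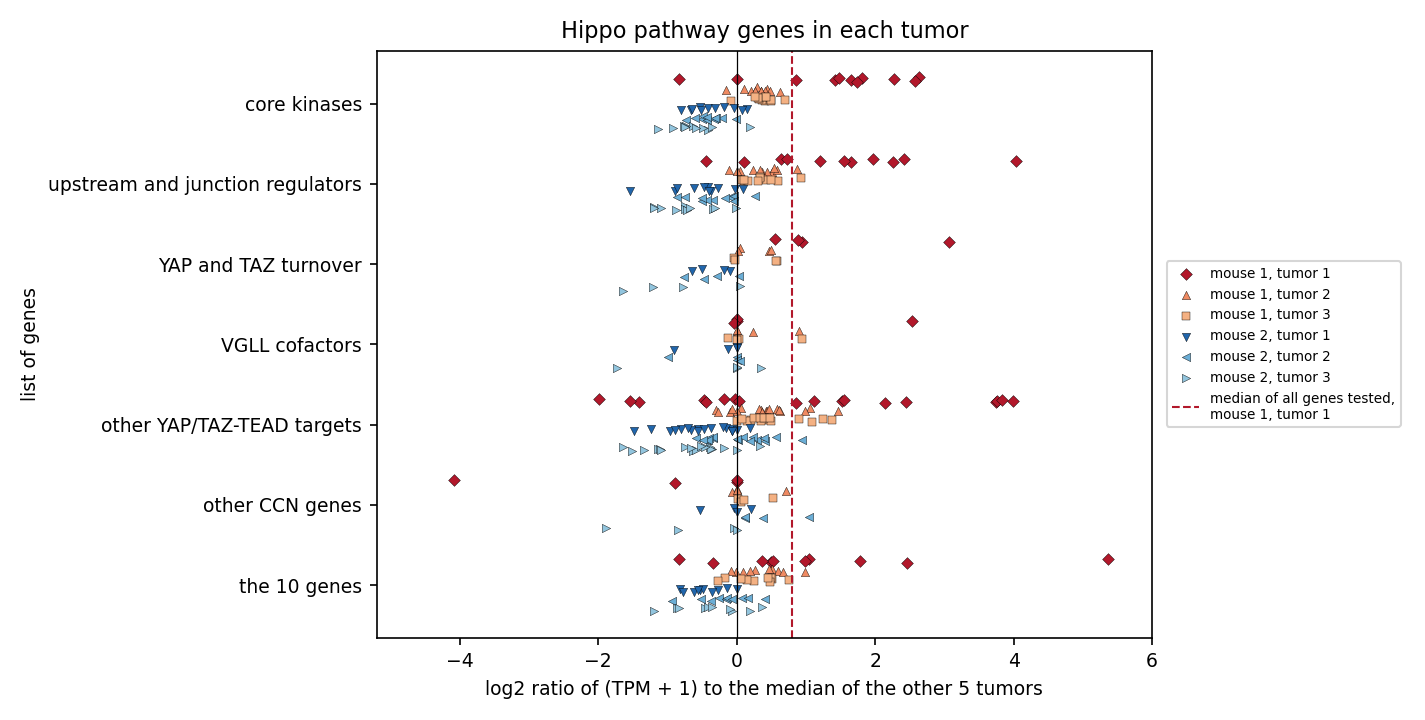
Horizontal axis, log2 ratio of (TPM + 1) in a tumor to the median of the other 5, with 1 point per gene and tumor, by list of genes. The dashed line marks the median of all tested genes in tumor 1 of mouse 1, 0.80. Points of that tumor lie mostly right of it for core kinases and upstream regulators, and on both sides for the 10 genes and the other targets.

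A further 18 known YAP, TAZ and TEAD targets, of which *Lats2* and *Ptpn14* are also on the lists above, were set against all genes in the same tumor. It was highest for 11 and lowest for 4 of the 18 in TPM, against 60.9% and 22.5% of tested genes. After TMM scaling it was highest for 10 and lowest for 6, against 44% and 37.2%. At least 4 times the median of the others was reached by 8 in TPM, against 26.8% of tested genes, and by 5 after TMM scaling, against 14.9%. The counts of highest and of at least 4 times include *Foxf2*, an untested gene with 0.0223 TPM there and 0 in the others. The median log2 ratio of the tested targets was 1.11 in TPM and 0.44 after TMM scaling, against 0.80 and 0.11 over all tested genes. *Nt5e*, the ectonucleotidase CD73, had 60.2 TPM against 18.7 to 32.2 TPM and *Gadd45a*, a stress-response gene, 41.3 TPM against 6.72 to 17.4 TPM. Still larger ratios came from *Tgfb2*, a TGF-β ligand, at 32.8 TPM against 0.140 to 4.60 TPM, *Rbms3*, an RNA-binding protein, at 18.6 TPM against 0.062 to 0.885 TPM, and *Arhgef17* at 17.2 TPM against 0.0595 to 1.06 TPM. *Ccdc80* had 21.4 TPM against 0.960 to 4.77 TPM and *Fjx1* 12.6 TPM against 0 to 0.358 TPM. In the other direction, *Axl*, a receptor tyrosine kinase, stood at 4.50, 26.3 and 24.6 TPM in mouse 1, against 5.81 to 13.6 TPM in mouse 2. *F3*, tissue factor, had 0.296 TPM against 1.56 to 3.26 TPM, and the kinase *Nuak2* 0.301 TPM against 2.86 to 8.01 TPM. The profile of *Axl* was thus like that of *Ccn1*, lowest in tumor 1 and highest in tumors 2 and 3 of mouse 1.

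Other CCN genes and the AP-1 factors that occupy many enhancers with TEAD completed the set. *Ccn5*, a CCN gene without the C-terminal domain, had 0.851 TPM in tumor 1 of mouse 1, against 7.45 to 37.7 TPM in the others, *Ccn4* had 0.396 TPM against 0.436 to 2.71 TPM, and *Ccn3* and *Ccn6* stayed at or below 0.108 TPM. *Jun* was highest in tumor 1 of mouse 1, at 55.4 TPM against 12.6 to 17.3 TPM, while *Junb* was lowest there, at 9.86 TPM against 15.9 to 21.6 TPM. *Jund* had 76.3 TPM, within the range of 64.9 to 150.3 TPM of the others on this scale, and was lowest after TMM scaling. Of 8 immediate early genes, 1 was highest (*Jun*) and 3 lowest in that tumor in TPM, against 60.9% and 22.5% of tested genes, and after TMM scaling 1 was highest and 5 lowest, against 44% and 37.2%. Their sum in TPM was the highest of the 6, at 95.7 TPM against 51.1 to 83.2 TPM, with *Jun* alone at 55.4 TPM of it. After TMM scaling the sum was level with that of the other tumors of mouse 1. It was 59.3, 59.4 and 59.3 in mouse 1, against 65.0, 91.7 and 101.8 in mouse 2. *Fos* had 1.08 TPM and *Egr1* 0.249 TPM there.

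Between the mice, no member passed the test. The question was whether the animals differed in these genes beyond the spread among their own tumors, and with 2 animals the p-values measure only the spread between tumors, so that the animal and anything else that set the mice apart cannot be told apart. With all 6 tumors, the quasi-likelihood test of edgeR called 0 of 13268 genes (0%) at a Benjamini-Hochberg adjusted p below 0.05. At an unadjusted p below 0.05 there were 1449, DESeq2 called 202, and limma-voom called 0. Without tumor 1 of mouse 1 edgeR called 168 of 13374 genes (1.26%), of which 112 were higher in mouse 1 (0.837%) and 56 were lower (0.419%), and DESeq2 called 1369 and limma-voom 477. None of these calls was among the 9 members tested, or among the core kinases, upstream regulators, turnover, VGLL, other target and other CCN genes, with edgeR in either set of tumors.

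*Tead2* had the widest difference, with a log2 fold change of mouse 1 over mouse 2 of 4.49 ± 1.50 (SE; edgeR adjusted p = 0.412), and 1.50 ± 0.55 (adjusted p = 0.216) without tumor 1 of mouse 1. *Tead1* was at 1.44 ± 0.70 (edgeR adjusted p = 0.525), and at 0.50 ± 0.47 without that tumor. *Yap1* was at 0.38 ± 0.27 (edgeR adjusted p = 0.644) and 0.13 ± 0.13 without it, and *Wwtr1* at 0.15 ± 0.21 (adjusted p = 0.801) and 0.07 ± 0.13. The separation of mouse 1 above mouse 2 seen in TPM was smaller after scaling. All 3 tumors of mouse 1 were above all of mouse 2 for 6 of the 10 members in TPM, against 40.6% of tested genes, and for 3 of the 10 after TMM scaling, against 13.4%. Tumors 2 and 3 of mouse 1 were above all of mouse 2 for 7 of the 10 members in TPM, against 56.6% of tested genes, and for 4 of the 10 after TMM scaling, against 21.7%. Each of these counts includes *Tead4*, which was not among the tested genes. After TMM scaling it had 0.0860 in tumor 3 of mouse 1, against 0.0721 in tumor 3 of mouse 2, from 7 and 2 estimated counts. *Yap1* was also close after TMM scaling, with 21.0 in tumor 3 of mouse 1, against 20.4 in tumor 1 of mouse 2.

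*Ccn2* and *Tead3* leaned the other way. After TMM scaling all 3 tumors of mouse 1 were below all of mouse 2 for these 2 of the 10 members, against 11% of tested genes. In TPM that held for 0 of the 10, against 1.73% of tested genes. *Ccn2* was at -0.76 ± 0.32 (SE; edgeR unadjusted p = 0.0520, adjusted p = 0.462) with 6 tumors and -0.79 ± 0.28 (unadjusted p = 0.0324, adjusted p = 0.205) without tumor 1 of mouse 1. *Tead3* was at -0.73 ± 0.35 (edgeR adjusted p = 0.522) and -0.69 ± 0.30 (adjusted p = 0.285). *Ccn1*, *Amotl2* and *Ankrd1* were at -0.07 ± 0.58, -0.12 ± 0.32 and -0.01 ± 0.88 with 6 tumors, and at 0.35 ± 0.24, 0.12 ± 0.19 and 0.47 ± 0.59 without tumor 1 of mouse 1, each with an edgeR adjusted p of at least 0.471. With library size in place of TMM the median log2 fold change of all tested genes was 0.55 instead of 0.04, and *Ccn2* was at -0.21. The 5 endothelial markers had a sum of 9.93, 52.2 and 60.5 TPM in mouse 1, against 23.5 to 30.9 TPM in mouse 2, so that the mice overlapped. Tumors 2 and 3 of mouse 1 were above all of mouse 2 for 5 of 5 markers in TPM and 3 of 5 after TMM scaling, against the 56.6% and 21.7% of tested genes, and the part of these cells in the levels of the members was not tested.

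**Figure D5:**
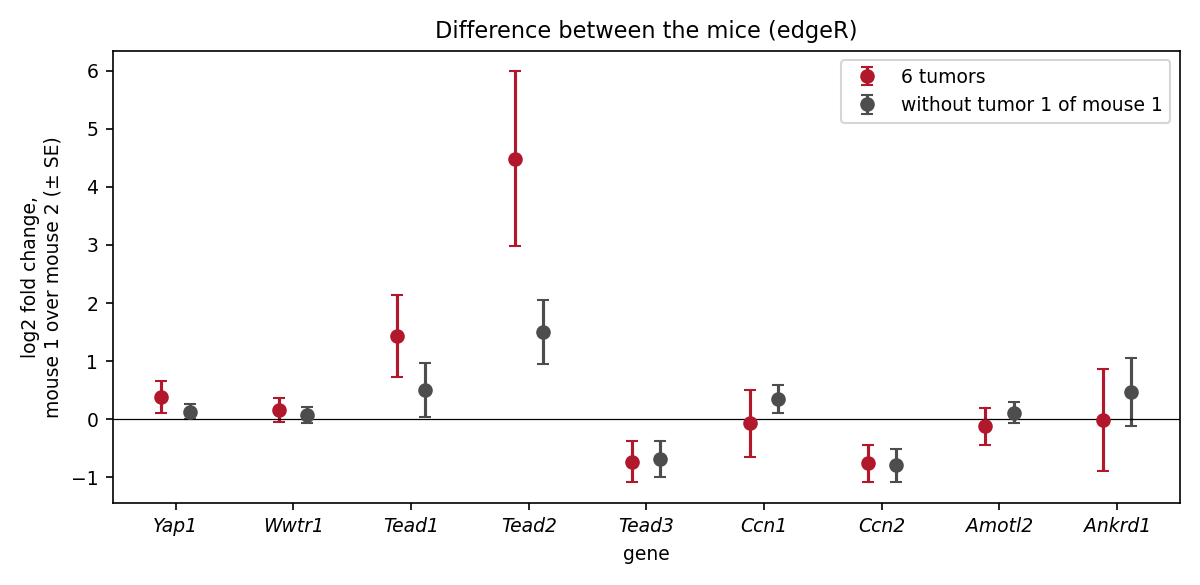
Log2 fold change of mouse 1 over mouse 2 (vertical axis; points, with bars of 1 SE) for the 9 members tested with edgeR, with all 6 tumors and without tumor 1 of mouse 1. *Tead2* lies at 4.49 with 6 tumors and at 1.50 with 5, and none of the 9 passes the adjusted threshold.

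Ordered by mean TPM over 6 tumors, the members ran *Yap1*, *Wwtr1*, *Tead2*, *Ccn1*, *Amotl2*, *Ccn2*, *Tead1*, *Tead3*, *Ankrd1* and *Tead4*. Neighbors in that order were separated beyond their spread (1 sign in all tumors and a mean log2 difference above its SD) only for *Yap1* over *Wwtr1* and for *Tead3* over *Ankrd1*, by 3.16 ± 1.15 (SD, n = 6). *Tead2* owed its place to 1 tumor. Without tumor 1 of mouse 1 the order was *Yap1*, *Wwtr1*, *Ccn1*, *Amotl2*, *Ccn2*, *Tead3*, *Tead1*, *Tead2*, *Ankrd1* and *Tead4*. *Amotl2* and *Ccn2*, *Tead3* and *Tead1*, *Tead2* and *Ankrd1*, and *Ankrd1* and *Tead4* were then the neighbors that did not differ beyond their spread.

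Genes whose centered log2(TPM + 1) lay closest to that of *Yap1*, *Wwtr1* or *Ccn2* were sought among 8532 genes that averaged 5 TPM or more. Closest to *Yap1* were *Naa15*, *Midn* and *Rap1gds1*, at a mean absolute difference of 0.0324, 0.0387 and 0.0399 over the 6 tumors. *Wwtr1* was followed most closely by *Fbxl5*, *Topors* and *Vps26b*, at 0.0201, 0.0318 and 0.0333. *Ccn2* had *Atg4a*, *Mrpl18* and *Alg6*, at 0.0411, 0.0546 and 0.0547. None of these genes is on the lists of Hippo genes, and with 6 tumors, 1 of them far from the rest, such likeness is a description only.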

How the data were processed

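RNA of 6 tumors was sequenced by the submitters as poly(A) libraries. For each tumor the authors deposited, per Ensembl mouse transcript, the estimated count of reads, the TPM, and the annotated and effective lengths. The layout is that of Salmon. GRCm38, BWA and Picard are listed in the processing notes of the submitters, and for the release of the transcript index nothing was given in the sources used here. Names came from GENCODE vM39, matched by transcript ID without version (114813 matched, and 1733 unmatched held 0.373% to 0.680% of counts), and estimated counts and deposited TPM were summed per gene. No column of other samples was present (0). Gene positions and promoter windows are those of RefSeq for GRCm38.p6.

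Estimated counts were rounded and tested with edgeR 4.0.16 (quasi-likelihood, TMM, filterByExpr, two-sided, Benjamini-Hochberg over all genes tested, threshold 0.05), mouse 1 minus mouse 2, in R 4.3.3. The study states no test for these libraries. Alternatives were DESeq2 1.42.0, limma-voom 3.58.1, library size, DESeq2 size factors, no filter, a length offset, the tumor number as a block, and each tumor left out. TPM was also rescaled without mitochondrial genes, over coding transcripts, and by TMM. The fits were tested on simulated data. Ratios used a pseudocount of 1 TPM on the log2 scale, and the level order 0.01 TPM. Depth, 19130532 to 27681766 counts per tumor, limits members such as *Ankrd1* and *Tead4*.

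The genes named are the 10 members with their transcripts of at least 1 TPM on average, and the 3 highest genes of each Hippo list and of the AP-1 list. Of the Hippo lists, the rule also held genes with a tumor at least 4 times the median of the other 5 and genes that passed the test. It further held the 3 genes most like *Yap1*, *Wwtr1*, *Ccn1* and *Ccn2*. Of the cell type marker and immediate early lists, only some of the 3 highest genes are named singly. Other genes and transcripts, such as *Cnn1*, *Egr1*, *Taok3*, *Axl*, *F3* and *Nuak2*, were named after their values were seen, as was the count of members highest in a tumor. Members and lists were chosen with earlier results of these data known. The genes with levels most like those of *Ccn1* are not reported here.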

Additional observations from a re-analysis of the deposited data

Results flagged for a closer look

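By Dixon's test on log2 values of the 6 tumors (critical ratio 0.625), 3 quantities had a tumor far from the rest, in each case tumor 1 of mouse 1. *Tead2* had a log2(TPM + 1) of 6.06 there (ratio 0.835), *Tead1* had 4.20 (ratio 0.647), and the log2 of the summed TPM of the 4 TEAD genes was 6.48 (ratio 0.852). Of the other members, *Yap1* came nearest, with a ratio of 0.594. Chance marks about 1 in 20 such sets, and the sum shares its values with the genes. The share of all tested genes that the same rule would mark is not given here, so the number of marked members has no background to be read against. By another measure, the same tumor was highest for 60.9% of all tested genes in TPM and 44% after TMM scaling.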

How the results depend on the processing

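No alternative called a member: the count was 0 in 16 of 16 settings. The number of genes called over the whole table was 0 with edgeR on 6 tumors, 202 with DESeq2, and 0 to 168 when 1 tumor was left out, the 168 being without tumor 1 of mouse 1. Without that tumor it was 1369 by DESeq2, 477 by limma-voom and 151 with library size alone. The labels number the tumors of both mice 1 to 3, but the numbers do not pair the tumors: deviations of tumors with the same number correlated at 0.03, -0.04 and 0.05, and not every tumor correlated best with its own number. With the number as a replicate block 0 genes were called (800 at an unadjusted p below 0.05, against 1449 without the block). DESeq2 gave no p for *Tead2* with 6 tumors, and *Tead4* was fitted only without a filter, at 2.61 ± 1.44 (edgeR adjusted p = 0.618). The sign of 3 uncalled log2 fold changes turned. *Ccn1* was at 0.27 with library size alone, at 0.35 without tumor 1 of mouse 1 (0.36 by DESeq2, 0.38 by limma-voom, 0.61 with library size), and between -0.45 and 0.35 when 1 tumor was left out. *Amotl2* was at 0.33 with library size alone, at 0.12 without tumor 1 of mouse 1 (0.12, 0.14 and 0.39 by the same alternatives), and between -0.31 and 0.12 when 1 was left out. *Ankrd1* was at 0.31 with library size alone, at 0.47 without tumor 1 of mouse 1 (0.47, 0.55 and 0.72), and between -0.75 and 0.47 when 1 was left out. The cause was not tested. The median of the 10 mean levels was 6.24 TPM, 8.36 TPM without mitochondrial genes and 4.35 to 6.57 TPM when 1 tumor was left out. The number of neighbors separated in the level order was 2 with each pseudocount, and of the 12 genes most like a member, 7 were kept with a pseudocount of 0.1 TPM and 10 with a mean of at least 1 TPM.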
